A study of Mus musculus with 8 samples.

Results

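Hedgehog signaling was examined through 9 of the 23361 genes measured by RNA sequencing in cancers of the gastric squamous-columnar junction (SCJ), the border between the squamous forestomach and the glandular stomach. The 9 were chosen by name. They comprise the ligands Shh and Ihh, the receptor Ptch1, the transducer Smo, the transcription factors Gli1, Gli2 and Gli3, and the inhibitors Hhip and Sufu. All 9 were found in the table. The 5 cancers came from mice that carried Lgr5eGFP-Ires-CreERT2 together with Rb1 loxP/loxP, Trp53 loxP/loxP and Ai9 alleles, labelled Trp53-/-Rb1-/-, months after tamoxifen, and their borders were drawn by the tdTomato reporter of the Ai9 allele. The 3 controls were the SCJ compartment of stomachs from wild type mice paired by age. Whether the controls received tamoxifen is not given in the sources used here. Cre was driven by Lgr5, so that Trp53 and Rb1 were deleted only in Lgr5-expressing cells and their descendants, while the other cells of a cancer kept both genes. RNA was taken from whole tissue.

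Hedgehog ligands are secreted proteins. A ligand that binds Ptch1 relieves Smo of repression, and active Smo passes the signal through the primary cilium to the Gli factors, which Sufu otherwise holds back. Gli1, Ptch1 and Hhip are themselves targets of the pathway and are commonly read as a record of its activity. In the adult stomach, Shh is made mainly by acid-secreting parietal cells and Ihh by pit mucous cells of the surface, whereas the responding cells lie mostly in the mesenchyme.

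Shh and Ihh are close paralogs, and the coding stretch in which they are most alike is shown to give the differences by which their reads can be told apart. Over 120 bases, both in exon 2 and both read from the minus strand, 107 bases were identical and 13 differed (capitals). The stretches lie at chr5:28461439-28461558 (Shh) and chr1:74948421-74948540 (Ihh) of GRCm38, the assembly known as mm10, with exons taken from the GENCODE annotation:
Shh: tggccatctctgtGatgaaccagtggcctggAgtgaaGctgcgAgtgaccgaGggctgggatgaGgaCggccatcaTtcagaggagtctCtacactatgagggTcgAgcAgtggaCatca
Ihh: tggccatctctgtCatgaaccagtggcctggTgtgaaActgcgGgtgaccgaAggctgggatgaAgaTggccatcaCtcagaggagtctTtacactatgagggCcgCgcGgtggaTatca
The coding sequences were 1311 and 1233 bases long, and 830 of 1213 aligned bases (68.4%) were identical. The longest run shared by the full transcripts was 17 bases. Read length is not given in the sources used here.

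Levels are given as FPKM (fragments per kilobase and per unit of sequencing), a level per length that can be compared between genes. The deposited values were whole numbers, so that a low gene moved in few steps, and a value of 0 is given as listed at 0. Fold changes are cancer minus control on the log2(FPKM + 1) scale and understate the change of low genes. The 14357 genes that reached 1 FPKM in 3 or more samples were tested with limma, and a change was called at an adjusted p under 0.05. A two-sided exact permutation test, whose smallest p is 0.018 for 5 samples against 3, was added for single comparisons. Depth is unknown. FPKM summed to 887141 at least and 992550 at most in the controls, and to 403569 at least and 573858 at most in the cancers. The 10 most abundant genes took 11.1% to 19.6% of this sum in the cancers and 39.3% to 44.3% in the controls. Bringing all libraries to one sum (TPM) moved the median log2 fold change of all tested genes from -0.04 to 0.81. Of the deleted genes, Trp53 stood at 16, 17 and 19 FPKM in controls 1 to 3 and 12, 22, 12, 30 and 12 in cancers 1 to 5. Rb1 stood at 9, 9 and 10 FPKM in the controls and 4, 4, 5, 6 and 4 in the cancers. Values per gene do not resolve the deleted exons.

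Of the Hedgehog genes, only Shh and Ihh were lower in every cancer than in every control, as were 19.8% of all tested genes. Shh was called lower, and Ihh did not pass the threshold across all genes. No change was called in the receptor, the transducer, the Gli factors or the inhibitors. Of the 9 genes, 8 could be tested with limma, and 1 was called, in the lower direction, while 2 had an unadjusted p under 0.05 (Shh and Ihh). Across all tested genes 34.5% were called, 18.3% lower and 16.2% higher, so that the share of the tested Hedgehog genes (12.5%) was below the background. The median log2 fold change of the 8 was -0.64, against -0.04 over all tested genes, and -0.66 without Gli3, which passed the filter on low values only through the cancers. The log2 fold change was negative for 7 of the 8, of which Ptch1 and Sufu turned positive with TPM (0.12 and 0.55, adjusted p = 0.82 and 0.12 from limma). Every cancer lay below every control for 2 of the 9, Shh and Ihh, both among the 8 tested. With 19.8% of all tested genes showing this pattern, it is not particular to the ligands.

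**Figure D1:**
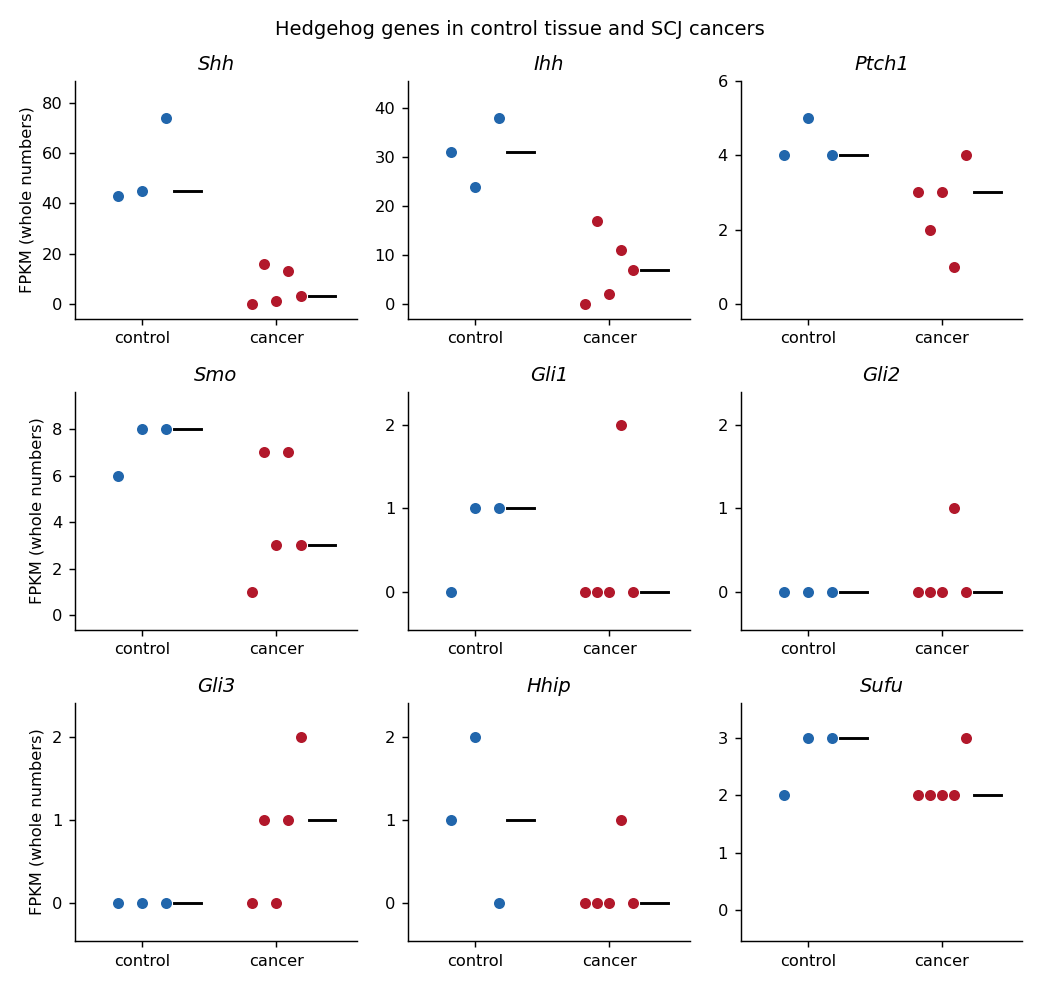
Level of each of the 9 Hedgehog genes (FPKM, whole numbers, a separate vertical scale in each panel) in 3 controls (blue) and 5 cancers (red). Points are samples in replicate order and black lines are medians. The Shh and Ihh points of the groups do not overlap, whereas Gli1, Gli2, Gli3 and Hhip never exceed 2.

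Shh (mm10 chr5:28456840-28719209), the ligand of the parietal cell, stood at 43, 45 and 74 FPKM in controls 1 to 3. In cancers 1 to 5 it stood at 0, 16, 1, 13 and 3 FPKM. The highest cancer was thus well below the lowest control, and the cancers themselves fell into a higher pair, cancers 2 and 4, and 3 low samples. The log2 fold change was -3.56 (SE 0.94, 95% interval -5.75 to -1.37, adjusted p = 0.024 from limma; two-sided exact permutation test, p = 0.036). The direction held in all 17 alternative settings, in which the log2 fold change ranged from -5.18 to -3.0. The call was kept in 9 of them, including TPM (-3.0, adjusted p = 0.035 from limma), and was lost with a smaller pseudocount, with a replicate block, and without cancer 3, cancer 5 or any one control (adjusted p of 0.0503 to 0.13 from limma). The deposited Shh locus also spans the noncoding gene 9530036O11Rik, which was listed at 0 in 7 samples and at 1 in control 3.

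Ihh (mm10 chr1:74945318-74951651), the ligand of the pit mucous cell, stood at 31, 24 and 38 FPKM in the controls. In the cancers it stood at 0, 17, 2, 11 and 7 FPKM. Here too the groups did not overlap, but the distance between the highest cancer and the lowest control was smaller than for Shh. The log2 fold change was -2.51 (SE 0.89, 95% interval -4.58 to -0.43, adjusted p = 0.061 from limma; two-sided exact permutation test, p = 0.054). It was negative in all 17 alternative settings and past the threshold in 3, with only genes of mean FPKM of at least 5 tested, with array weights, and without cancer 2 (adjusted p = 0.047, 0.0063 and 0.037 from limma).

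The 2 ligands kept the same order among the cancers. Cancer 2 was highest for both, followed by cancers 4, 5 and 3, and both were listed at 0 in cancer 1. Their balance was compared within each sample, where scaling between libraries has little weight. Shh exceeded Ihh in 3 of 3 controls, making up 58.1%, 65.2% and 66.1% of the sum of the ligands. It exceeded Ihh in 1 of the 4 cancers with any ligand, with shares of 48.5%, 33.3%, 54.2% and 30.0% in cancers 2 to 5. On the log2(FPKM + 1) scale Shh minus Ihh was 0.76 ± 0.26 (SD, n = 3) in the controls and -0.29 ± 0.50 (SD, n = 5) in the cancers. The difference of -1.05 had p = 0.036 in a two-sided exact permutation test, or 0.071 after Benjamini-Hochberg adjustment for the 2 within-sample comparisons made. In cancer 1 the difference of 0 comes from both ligands being listed at 0. Without it the cancers stood at -0.36 ± 0.54 (SD, n = 4), and the difference of -1.12 had p = 0.057 in the exact permutation test. Lower pseudocounts, TPM and quantile normalization gave differences of -1.19 to -1.06, each with p = 0.054 in the exact permutation test.

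Summed markers of the parietal and pit mucous cells were lower in every cancer than in every control. FPKM of 10 genes listed for the parietal cell, led by the proton pump subunits Atp4a and Atp4b and the intrinsic factor Gif, summed to 9328, 14516 and 12557 in the controls. In the cancers the sum was 12, 2272, 325, 3601 and 502. Of these 10 genes limma called 4 lower and 0 higher, and 9 had an unadjusted p under 0.05, with a median log2 fold change of -3.68. Gif is made mainly by chief cells in the mouse. Without it the sum was 6747, 9534 and 9183 in the controls and 12, 1752, 289, 3167 and 324 in the cancers, and 4 of 9 genes were called lower, with a median of -3.43. Atp4a itself stood at 1643, 3437 and 3572 FPKM in the controls and at 0, 370, 66, 810 and 67 in the cancers (adjusted p = 0.068 from limma). The paper describes the first gland at the SCJ as without parietal cells, so the control values of these genes, and of Shh, need not be those of that gland. How much neighbouring gland the control tissue held is not given in the sources used here.

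FPKM of 8 genes listed for the pit mucous cell, led by the secreted Tff1, Gkn2 and Gkn1, summed to 206792, 147267 and 215757 in the controls. In the cancers the sum was 788, 75200, 5310, 46815 and 16226. Of these 8 genes limma called 2 lower and 0 higher, and 5 had an unadjusted p under 0.05, with a median log2 fold change of -3.52. These 2 of 8 genes, and 4 of 10 parietal genes (40.0%), stand against 18.3% called lower among all tested genes. Within the pit list Gkn3 and Tff2 overlapped between groups. Gkn3 stood at 21, 55 and 43 FPKM in the controls and 1, 1791, 47, 147 and 52 in the cancers, and Tff2 was higher in cancer 2 (7031 FPKM) than in any control. The order of the cancers by this sum was that of Shh and Ihh, with cancer 2 highest and cancer 1 lowest. By the parietal sum the order differed only in that cancer 4 came before cancer 2. In whole tissue, fewer cells of a type and less RNA per cell cannot be told apart.

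Relative to the markers the ligands moved less. Shh was 0.461%, 0.310% and 0.589% of the parietal sum in the controls and 0.704%, 0.308%, 0.361% and 0.598% in cancers 2 to 5, so that the groups overlapped. Without Gif in the sum Shh was 0.637%, 0.472% and 0.806% in the controls and 0.913%, 0.346%, 0.410% and 0.926% in cancers 2 to 5, again with overlap. Ihh was 0.0150%, 0.0163% and 0.0176% of the pit sum in the controls and 0.0226%, 0.0377%, 0.0235% and 0.0431% in cancers 2 to 5, each above each control. Cancer 1, in which both ligands were listed at 0, had little of either marker sum. The part of these cell types in the ligand values was not tested.

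**Figure D2:**
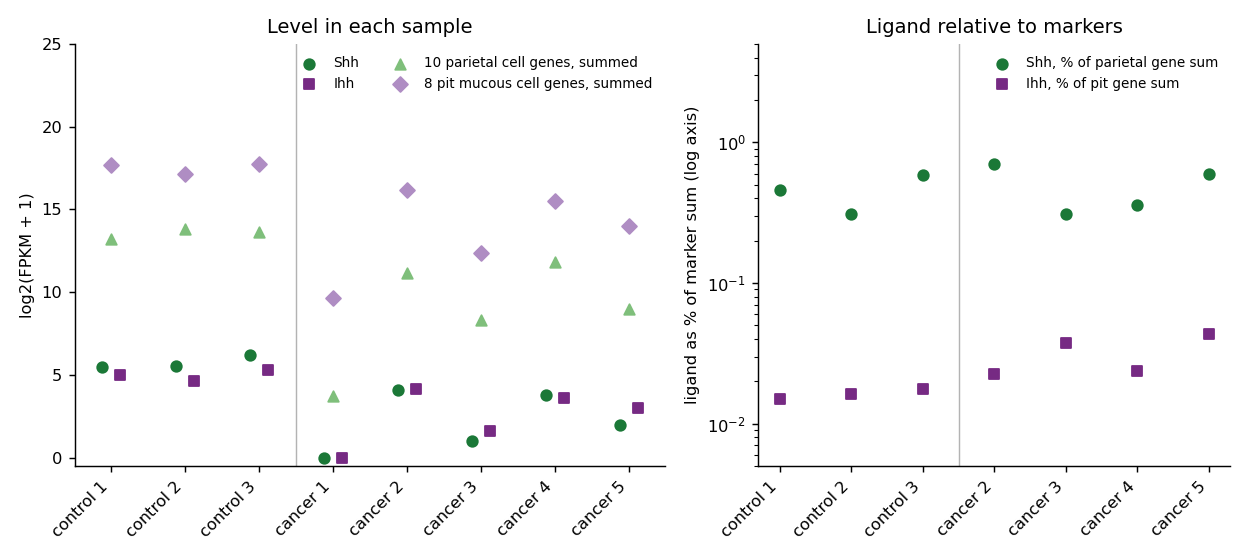
Left, level of Shh, Ihh and the summed parietal and pit mucous cell markers on the log2(FPKM + 1) scale in each sample. Right, Shh as a percent of the parietal sum and Ihh as a percent of the pit sum on a log axis, without cancer 1, in which both ligands are listed at 0. The 4 series fall together in the cancers on the left, while on the right Shh lies between 0.308% and 0.704% in both groups.

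Other genes followed the ligands closely over the 8 samples. Profiles were compared as the root-mean-square difference of log2(FPKM + 1) after centring each gene on its own mean. For Shh the nearest were Gkn1, the gastrokine of pit cells (0.29), Vstm2b (0.35) and Capn9, a calpain of the digestive tract (0.35). For Ihh the nearest was Erbb2, a receptor tyrosine kinase, with 0.083. Its levels of 26, 22 and 34 FPKM in the controls and 0, 16, 2, 10 and 7 in the cancers were within 5 FPKM of those of Ihh in every sample. Slc22a18 (0.13) and Ern2 (0.19) came next. The samples share their libraries and tissue make-up, and likeness of this kind carries no test.

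The receptor and the transducer were low in both groups, and their values overlapped. Ptch1 (mm10 chr13:63511533-63565520), which binds the ligands and represses Smo, stood at 4, 5 and 4 FPKM in the controls (4.33 ± 0.58, SD, n = 3) and 3, 2, 3, 1 and 4 in the cancers (2.6 ± 1.14, SD, n = 5). Only cancer 5 reached the level of the lowest controls. The log2 fold change was -0.63 (SE 0.29, 95% interval -1.31 to 0.052, adjusted p = 0.13 from limma; two-sided exact permutation test, p = 0.089).

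Smo (mm10 chr6:29735497-29761366) stood at 6, 8 and 8 FPKM in the controls (7.33 ± 1.15, SD, n = 3) and 1, 7, 3, 7 and 3 in the cancers (4.2 ± 2.68, SD, n = 5). Cancers 2 and 4, the highest for the ligands, were within the control range. The log2 fold change was -0.85 (SE 0.46, 95% interval -1.91 to 0.21, adjusted p = 0.18 from limma; two-sided exact permutation test, p = 0.14). Ptch1 was below Smo in 3 of 3 controls and above it in 2 of 5 cancers, cancers 1 and 5. On the log2(FPKM + 1) scale Ptch1 minus Smo was -0.64 ± 0.19 (SD, n = 3) in the controls and -0.42 ± 1.25 (SD, n = 5) in the cancers. The difference of 0.22 was smaller than the spread among the cancers (two-sided exact permutation test, p = 0.79).

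The Gli factors were at or near the lowest step of the table. Gli1 (mm10 chr10:127323727-127341579), the activator induced by the pathway, stood at 0, 1 and 1 FPKM in the controls and 0, 0, 0, 2 and 0 in the cancers, with cancer 4 the highest of all samples (adjusted p = 0.56 from limma; log2 fold change -0.35, SE 0.44). Its deposited locus also spans Arhgap9, a gene of blood cells, which stood at 6 FPKM in cancer 1, 2 in cancer 3 and 1 in each other sample. Gli2 (mm10 chr1:118834061-119053619), the main activator upstream of Gli1, was listed at 0 in every sample except cancer 4, at 1, and did not pass the filter on low values. Gli3 (mm10 chr13:15463723-15730025), which acts largely as a repressor, was listed at 0 in all 3 controls. In the cancers it stood at 0, 1, 0, 1 and 2 FPKM. It passed the filter on low values only through cancers 2, 4 and 5, so that its positive sign was fixed by the filter and no test of it is given.

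Of the inhibitors, Hhip (mm10 chr8:79965851-80058008), a membrane protein that binds the ligands and is induced by the pathway, stood at 1, 2 and 0 FPKM in the controls and 0, 0, 0, 1 and 0 in the cancers. The groups overlapped (log2 fold change -0.66, SE 0.39, adjusted p = 0.21 from limma). Of the 32 values of Gli1, Gli2, Gli3 and Hhip, 22 were listed at 0 and the highest was 2. Steps of 1 FPKM limit what can be seen in these genes. Sufu (mm10 chr19:46396918-46486660), which binds the Gli factors in the cytoplasm, stood at 2, 3 and 3 FPKM in the controls (2.67 ± 0.58, SD, n = 3) and 2, 2, 2, 2 and 3 in the cancers (2.2 ± 0.45, SD, n = 5). Its log2 fold change was -0.19 (SE 0.17, 95% interval -0.59 to 0.20, adjusted p = 0.39 from limma).

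Profiles near those of the low genes were found in the same way. For Gli1 the nearest were A330049N07Rik, with identical values in all samples (0), and then 2410124H12Rik and Ankk1 (0.19 each, within a tie, with 11 genes at or below that value). For Hhip they were 5033411D12Rik and Hes2 (0.19 each) and Atg4a (0.25), which was higher, at 12, 12 and 6 FPKM in the controls and 5, 6, 5, 8 and 5 in the cancers.

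By median level the order in the controls was Shh (45 FPKM), Ihh (31), Smo (8), Ptch1 (4), Sufu (3), Gli1 and Hhip (1 each), and Gli2 and Gli3 (0 each). From Shh to Sufu the ranges of neighbours did not overlap, whereas Sufu met Hhip at 2 FPKM and the last 4 could not be separated. In the cancers the medians were 7 for Ihh, 3 for each of Shh, Smo and Ptch1, 2 for Sufu and 1 for Gli3, with the other genes at 0, and the range of every gene overlapped that of its neighbours. The ligands summed exceeded Ptch1 in every control and in cancers 2, 4 and 5, equalled it in cancer 3 and were below it in cancer 1.

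The binding sequence of the Gli factors was searched for in promoter windows of 300 bases, from 250 before to 50 after the start of a gene in RefSeq (GRCm38), because Gli1, Ptch1 and Hhip respond to them. The consensus GACCACCCA, on either strand, was in 0 of the 7 windows found for the Hedgehog genes (Ihh, Ptch1, Smo, Gli2, Gli3, Hhip and Sufu) and in 83 of all 32851 windows (0.253%). No window was found for Shh or Gli1. At that share a hit in 7 windows was unlikely from the start, so 0 of 7 says nothing about Gli binding.

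Beyond the 9 genes, 60 others of the pathway in 4 lists were examined, of which 53 were tested. Of these, 10 were called higher, 3 lower and 40 were not called, which is 24.5% of those tested against 34.5% of all genes. Their median log2 fold change was 0.12. With TPM, 35 were called higher and 1 lower, with the median of all genes itself at 0.81.

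Among 12 genes of ligand release and reception, 7 were tested, 1 rose and 1 fell. Disp2, a relative of the ligand exporter Disp1, stood at 0, 1 and 1 FPKM in the controls and 49, 18, 64, 20 and 42 in the cancers, with no overlap. Its log2 fold change was 4.48 (SE 0.47, adjusted p = 0.0011 from limma), the largest of the 53, and it was called with each sample left out in turn. Disp1, which frees the lipid-modified ligands from the cell that makes them, stood at 4, 3 and 5 FPKM in the controls and 1, 3, 2, 2 and 2 in the cancers (log2 fold change -0.75, SE 0.24, adjusted p = 0.046 from limma). That call was kept in 1 of the 8 fits that leave out a sample, and TPM put it at -0.05 (adjusted p = 0.87, limma). The coreceptors Cdon (2 FPKM in every sample), Boc (1 in every sample but cancer 2, at 2) and Gas1 (5, 4 and 7 in the controls and 1, 7, 3, 6 and 2 in the cancers) were not called. The third ligand, Dhh, and the ligand-releasing Scube3 were listed at 0 in every sample.

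Of 21 genes of signal relay and Gli processing, 20 were tested, 6 rose and 1 fell. The largest rises were in 2 subunits of protein kinase A, the kinase that marks Gli factors for processing into repressors, and in Tulp3. Another catalytic subunit, Prkaca, was not called, with 35, 36 and 43 FPKM in the controls and 44, 44, 40, 35 and 43 in the cancers (log2 fold change 0.11, adjusted p = 0.51 from limma). Prkar1a, a regulatory subunit, stood at 64, 70 and 74 FPKM in the controls and 263, 148, 305, 167 and 232 in the cancers (log2 fold change 1.62, SE 0.26, adjusted p = 0.0041 from limma). Prkacb, a catalytic subunit, stood at 10, 14 and 12 FPKM in the controls and 64, 23, 77, 33 and 65 in the cancers (log2 fold change 1.92, SE 0.40, adjusted p = 0.011 from limma, and 0.051 without control 1). Neither gene overlapped between groups. For each of them cancers 2 and 4 were the lowest of the cancers, as they were for Disp2, Ift81 and the neuroendocrine markers Neurod1 (53, 25, 90, 34 and 57 FPKM in the cancers), Insm1 and Syp. Tulp3, which carries receptors into the cilium, stood at 1, 2 and 1 FPKM in the controls and 6, 3, 5, 3 and 4 in the cancers (log2 fold change 1.15, SE 0.25, adjusted p = 0.013 from limma, and up to 0.055 without control 1 or 3). Kif7, the kinesin that organizes Gli factors at the tip of the cilium, was listed at 0 in every sample.

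Of 15 genes of primary cilium transport, all 15 were tested, 2 rose and 0 fell, and 4 had an unadjusted p under 0.05 in limma. Ift81, of the particle that carries cargo along the cilium, stood at 2, 2 and 1 FPKM in the controls and 10, 4, 10, 5 and 7 in the cancers (log2 fold change 1.58, SE 0.31, adjusted p = 0.0093 from limma). Wdr35, of the return particle, stood at 1, 2 and 1 FPKM in the controls and 5, 2, 6, 3 and 3 in the cancers (log2 fold change 1.0, SE 0.31, adjusted p = 0.040 from limma). The Ift81 values did not overlap between groups, those of Wdr35 met at 2 FPKM, and the Wdr35 call was kept in 1 of the 8 fits that leave out a sample.

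Of 12 known responders to Hedgehog, 11 were tested, 1 rose and 1 fell. Ccnd2, a cyclin of the G1 phase, stood at 52, 38 and 27 FPKM in the controls and 6, 12, 4, 7 and 11 in the cancers, with no overlap (log2 fold change -2.19, SE 0.36, adjusted p = 0.0045 from limma). It was called with each sample left out in turn. Snai1, a repressor of epithelial genes, stood at 1, 1 and 0 FPKM in the controls and 2, 3, 2, 3 and 2 in the cancers (log2 fold change 1.08, SE 0.27, adjusted p = 0.019 from limma, and 0.093, 0.057 and 0.087 with quantile normalization, a pseudocount of 0.1 and the replicate block). The mesenchymal responders Foxf1 (4, 3 and 2 FPKM in the controls and 1, 7, 2, 4 and 2 in the cancers) and Bmp4 (2, 3 and 3 in the controls and 1, 6, 3, 5 and 1 in the cancers) were not called. Both were highest in cancer 2, where the summed smooth muscle genes (1786 FPKM, against 51 to 572 in the other cancers) and fibroblast genes (436 FPKM, against 86 to 414) were highest too, and the part of these cells was not tested.

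**Figure D3:**
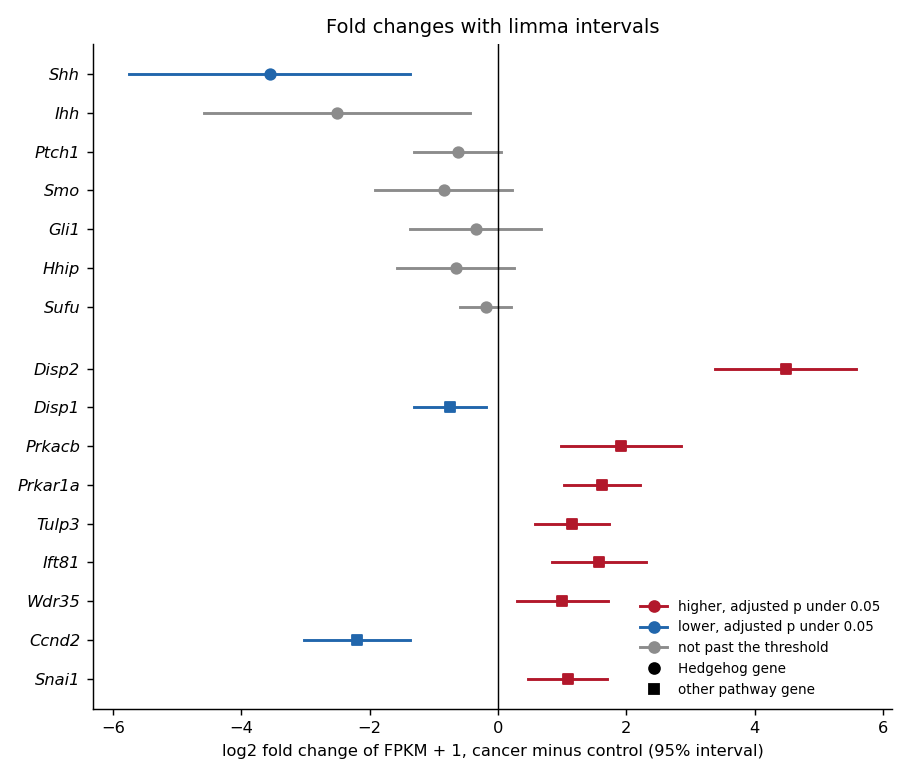
Log2 fold change of FPKM + 1, cancer minus control, with 95% intervals from limma, for the 7 tested Hedgehog genes that were above 0 in both groups (circles) and the 9 named genes of the pathway lists (squares). Color marks an adjusted p under 0.05 (red higher, blue lower, gray not past it). Shh, at -3.56, is the 1 Hedgehog gene past the threshold, and Disp2, at 4.48, lies farthest to the right.

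Markers of the other cell types that the tissue could hold are given beside these values. The labelled SCJ held squamous as well as glandular epithelium, and 10 squamous genes ranged in sum from 2771 to 4716 FPKM in the controls and 1 to 1995 in the cancers, with 2 called lower. Krt13, the most abundant, stood at 961, 1547 and 1571 FPKM in the controls and 0, 10, 97, 494 and 251 in the cancers. In cancer 4, however, Krt5 (574 FPKM), Krt14 (403), Trp63 (21), Dsg3 (18) and Krt6a (65) were above every control. Neuroendocrine genes went the other way. All 10 were called higher, with a median log2 fold change of 5.79, their sum was 128 to 193 FPKM in the controls and 8251 to 18554 in the cancers, and Neurod1 was listed at 0 in all controls. Of 8 general epithelial genes, 3 were higher and 2 lower, and their sum was 5840 to 8040 FPKM in the controls and 888 to 4960 in the cancers. Of 6 chief and neck cell genes, 1 was called lower, and the sum was 144 to 28986 FPKM in the controls and 18 to 7295 in the cancers. In it Pgc alone gave 28832 FPKM in control 1 and was listed at 0 in controls 2 and 3, so that a 0 in this table may also be an estimate that was not made.

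The cells that respond to Hedgehog were followed through 10 fibroblast genes, which ranged in sum from 95 to 178 FPKM in the controls and 86 to 436 in the cancers (2 higher, 0 lower), and 10 smooth muscle genes, which ranged in sum from 382 to 577 FPKM in the controls and 51 to 1786 in the cancers (0 called by limma, and 0 at an unadjusted p under 0.05). The fibroblast marker Fap was listed at 0 in all controls. Endothelial genes ranged in sum from 12 to 19 FPKM in the controls and 27 to 79 in the cancers, with 5 of 8 higher and 0 lower. Immune genes ranged in sum from 23 to 46 FPKM in the controls and 40 to 394 in the cancers, with 2 of the 7 tested higher. The highest sum was in cancer 1, where the B cell marker Cd79a stood at 68 FPKM. Schwann cell genes ranged in sum from 25 to 30 FPKM in the controls and 15 to 25 in the cancers (1 higher and 1 lower of 3 tested, with Sox10 and Foxd3 listed at 0 throughout). Genes of the hepatocyte list ranged in sum from 67 to 95 FPKM in the controls and 675 to 2038 in the cancers, most of it from Ttr in cancers 1 to 4. Of 3 tested, 2 were called higher, Ttr and Tat. Tat was listed at 0 in all controls, so that its direction was fixed by the filter on low values. Fga, Fgg and Cps1 were above 0 only in cancer 5. The part of these cells in the Hedgehog values was not tested.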

How the data were processed

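RNA sequencing covered 5 SCJ cancers and 3 control tissues. Libraries were directional and made from poly(A)+ RNA. The submitters' processing notes name cutadapt 1.8, TopHat2 2.0.13, Cuffnorm 2.2.1 and the build mm10, and the study's methods name cuffquant on UCSC mm10 genes. The deposited values are FPKM that the authors made with cuffnorm and that were rounded to whole numbers (100% of values were whole), and they were treated as a score, not as counts. The normalization option of cuffnorm is not given in the sources used here, and depth is unknown.

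Of 23361 genes, the 14357 that reached 1 FPKM in 3 or more samples were tested on log2(FPKM + 1), with a pseudocount of 1. The fit used lmFit and a trended eBayes in limma 3.58.1 (R 4.3.3), p-values were adjusted over all tested genes by the Benjamini-Hochberg method, and the threshold was 0.05. The fit was tested on simulated data. Each replicate was a separate sample by its label, and p-values measure the spread between these samples. Nothing was left out of the 8 measurement columns. Alternatives were pseudocounts of 0.1 and 0.01, no filter or a mean FPKM of at least 5, TPM, quantile normalization, an untrended eBayes, array weights, the replicate number as a block, and omission of each sample in turn.

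The 9 Hedgehog genes and all gene lists were chosen with earlier results of these data known. Of 171 list entries all 171 were matched, 1 through a synonym. Named were all 9 genes, up to 3 genes past the threshold with the largest change in each pathway list, the 3 most abundant genes of marker lists and defining markers listed at 0 in a group, and the 3 nearest profiles of Shh, Ihh, Gli1 and Hhip. Cdon, Boc, Gas1, Dhh, Scube3, Kif7, Foxf1, Bmp4, Prkaca, Neurod1, Insm1, Syp, Gkn3, Tff2, Krt5, Krt14, Trp63, Dsg3, Krt6a, Cps1, Fga and the genes sharing a locus were named for their roles or levels after their values were seen. Some list members were counted with the others and are not reported here. Values without Gif, and the median without Gli3, were added after the data were seen. Sequences were read from the GRCm38 reference and aligned with Biopython 1.88.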

Additional observations from a re-analysis of the deposited data

Results flagged for a closer look

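In 4 of the 20 results checked, 1 of the 5 cancers lay far from the others. Chance gives about 1 in 20 for continuous values, a rate that does not hold for tied whole numbers. Gli1 was at 2 FPKM in cancer 4 and at 0 in the other 4 cancers. Gli2 and Hhip were each at 1 FPKM in cancer 4 and at 0 in the other 4. Sufu was at 3 FPKM in cancer 5 and at 2 in the other 4. In each case the gap to the nearest cancer made up the whole range of the group (a ratio of 1). These values are separated by 1 or 2 steps of a table of whole numbers. With 4 of 5 values tied the ratio is 1 for a step of any size, so these flags show no excess of outliers.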

How the results depend on the processing

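The ligands kept their direction in all 17 alternatives. Of the alternatives run for the other Hedgehog genes, 92 left direction and call as they were and 3 added a call, while with TPM Ptch1 and Sufu reversed (0.12 and 0.55). The 1 Hedgehog gene called became 0 with a pseudocount of 0.1 or 0.01, 2 of 3 tested (Shh and Ihh) at a mean FPKM of at least 5, 5 with array weights (Shh, Ihh, Ptch1, Smo and Hhip) and 0 to 2 on omitting single samples, with 0 without cancer 3, cancer 5 or control 1, 2 or 3 and 2 without cancer 2. The 13 other pathway genes became 7 at a mean FPKM of at least 5 (22 tested), 36 with TPM, 22 with array weights and 6 to 17 on omitting single samples (6 without control 1). The 4948 genes called in all became 7704 with TPM (7176 higher and 528 lower), 8148 with array weights and 2548 to 5232 on omitting single samples (2548, 2700 and 2874 without control 1, 2 and 3). Shh minus Ihh was -1.17 with a pseudocount of 0.1, -1.19 with 0.01, -1.11 with TPM and -1.06 with quantile normalization (each p = 0.054, exact permutation test), and -1.20 to -0.87 on omitting single samples (p = 0.057 without cancer 1, 2 or 3 and 0.095 without control 2 or 3, exact permutation test). Ptch1 minus Smo was -0.0095 with quantile normalization and -0.13 to 0.62 on omitting single samples, with the negative value without cancer 1. For each of them the cause was not tested.

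Same-numbered cancers and controls did not deviate together (correlations of -0.02, -0.19 and -0.10), so the numbers do not pair the samples. With the number as a replicate block, 1534 genes were called in all, 0 Hedgehog genes and 4 other pathway genes. Whole-number values limit what can be seen in genes below a few FPKM.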
